A study of Mus musculus with 2 samples.

Results

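The inhibin and activin system was followed in the adrenal gland through 9 genes chosen by name: the subunit genes Inha, Inhba and Inhbb, the receptor genes Acvr1b, Acvr2a and Acvr2b, the co-receptor gene Tgfbr3, and the binding protein genes Fst and Fstl3. All 9 were found among 55536 annotated genes, and their 26 transcripts among 141767. Total RNA came from adrenal gland tissue of 2 adult females, 8 to 10 months old, replicate 2 (animal number 3) and replicate 1 (animal number 1). Both are of the strain B6CASTF1/J, a first-generation cross of B6 and Cast mice, so each library holds transcripts of both parental genomes. No treatment is labelled and both animals form 1 group, so the data give levels in the gland and the difference between 2 animals, with no contrast of conditions. The libraries held 34319787 and 40453707 expected counts for replicates 2 and 1, of which 20613 and 17949 fell on the 9 genes.

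Inhibins and activins are dimers of the TGF-β superfamily. An alpha subunit (Inha) joined to a beta subunit (Inhba or Inhbb) makes an inhibin, and a pair of beta subunits makes an activin. Activins bind a type II receptor (Acvr2a or Acvr2b), which recruits the type I receptor Acvr1b and leads to phosphorylation of SMAD2 and SMAD3. Inhibins occupy the same type II receptors together with betaglycan, the product of Tgfbr3, and so block activin. Follistatin (Fst) and follistatin-like 3 (Fstl3) bind activins and keep them from their receptors. In the adrenal cortex of mice Inha is known as a tumour suppressor, because gonadectomised animals without it develop adrenocortical tumours with gonadal features.

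Betaglycan mRNA stood far above every other gene of the system. Tgfbr3 reached 92.9 ± 25.6 TPM (an abundance per length of transcript, SD, n = 2), 9.89-fold above Inha, the next in order at 9.40 ± 2.18 TPM. Acvr2a followed at 6.36 ± 0.240 TPM, Acvr1b at 3.71 ± 1.05 TPM, Fstl3 at 3.4 ± 0.523 TPM and Acvr2b at 2.80 ± 1.19 TPM. Fst stood at 1.60 ± 0.346 TPM, Inhbb at 1.49 ± 0.0778 TPM and Inhba at 0.630 ± 0.325 TPM. Neighbours in this order were separated beyond the values of the 2 animals except Acvr1b and Fstl3, Fstl3 and Acvr2b, and Fst and Inhbb, whose values overlapped. Of the 9 genes 8 reached 1 TPM in both animals, as did 54.5% of nuclear protein-coding genes, and Tgfbr3 alone reached 10 TPM in both, as did 28.6% of those genes.

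**Figure D1:**
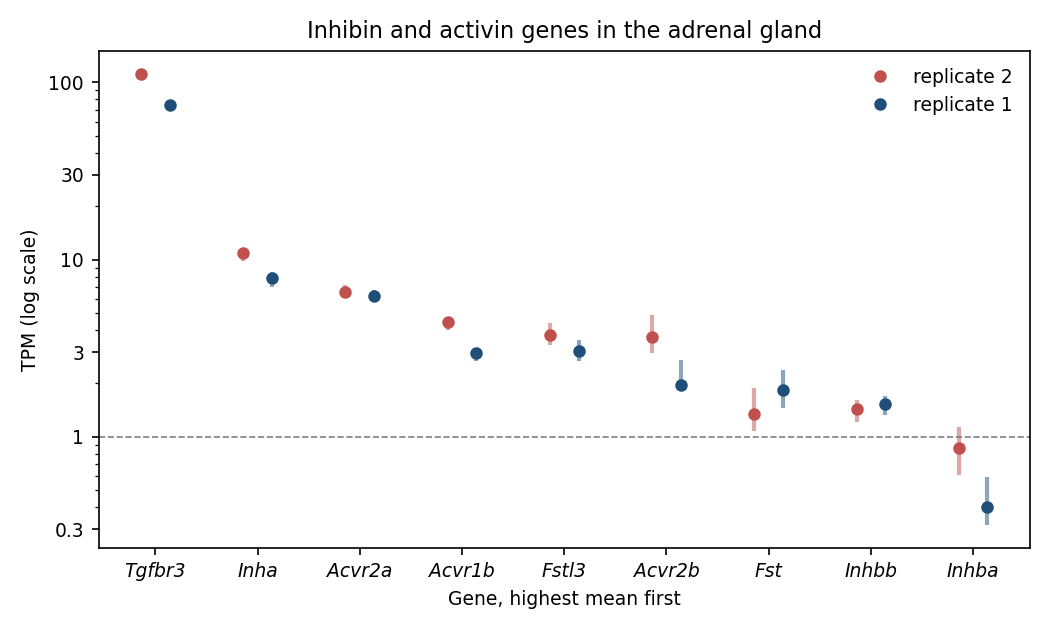
TPM on a log axis for each gene, highest mean first, with replicate 2 (red, left) and replicate 1 (blue, right); bars are the deposited TPM intervals of each library and the dashed line marks 1 TPM. Tgfbr3 lies near 100 TPM, the subunit gene Inha near 10 TPM, and both beta subunit genes near or below 1 TPM.

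Among the hormone subunits the alpha subunit led. Inha (ENSMUSG00000032968.4, protein-coding, chr1:75507077-75510366, plus strand, mm10 as for all coordinates here) had 10.9 TPM in replicate 2 and 7.85 TPM in replicate 1. The deposited TPM intervals, 9.79 to 11.7 in replicate 2 and 7.0 to 8.47 in replicate 1, did not overlap, so replicate 2 was the higher beyond the error of estimation within a library. Inha has 1 annotated transcript of 2 exons, and none of its 31-base words occurs in a transcript of another gene, so its value depends on no division of reads between isoforms or copies. Among nuclear protein-coding genes it lay at percentile 71.1 in replicate 2 and 66.6 in replicate 1.

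The beta subunit genes were close to the limit used for detection. Inhbb (chr1:119415465-119422248, minus strand), the subunit of activin B and inhibin B, had 1.43 TPM in replicate 2 and 1.54 TPM in replicate 1, from 196 and 249 expected counts. The 2 animals were close to each other, and their TPM intervals overlapped. Inhba (chr13:16011851-16031621, plus strand), the subunit of activin A and inhibin A, had 0.860 TPM in replicate 2 and 0.400 TPM in replicate 1, from 84 and 88 expected counts. The TPM values of Inhba thus stood 2.15-fold apart on nearly equal counts.

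The gap in Inhba lay mainly in the length assigned to the gene, while its scaled counts stood 1.08-fold apart. The effective length used for its TPM was 2971 bases in replicate 2 and 5631 bases in replicate 1, a 1.90-fold difference that follows from the division of reads between its 2 transcripts. Inhba-201, with 5 exons and 6390 bases, had 0.270 TPM in replicate 2 and 0.350 TPM in replicate 1, with overlapping intervals. Inhba-202, with 3 exons and 1529 bases, had 0.580 TPM (interval 0.309 to 0.873) in replicate 2 and 0.0500 TPM (2.65e-05 to 0.238) in replicate 1, and these did not overlap. By TPM it was the higher transcript in replicate 2 in both kinds of transcript table, and Inhba-201 was the higher in replicate 1 in both. By estimated counts Inhba-201 was the higher in both animals and both tables. In replicate 2 it had 56.4 counts beside 27.6 for Inhba-202 in the alignment-based table, and 74.1 beside 27.5 in the index-based table. Both transcripts carry the same coding region of 424 codons and differ in their untranslated ends. Of the 1499 31-base words of Inhba-202, 0 are absent from Inhba-201, so reads were given to Inhba-202 without any sequence of its own. Across 14061 genes with a mean count of 50 or more, 1.91% had effective lengths that differed 1.4-fold or more between the libraries. Inhba and Acvr2b were the 2 members that did, a limit set after their values had been seen.

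Per length of transcript the alpha subunit exceeded both beta subunits together. Inha was 4.78 times the sum of Inhba and Inhbb in replicate 2 and 4.05 times in replicate 1, a mean of 4.41 ± 0.517 (SD, n = 2). In the transcript table made from the reads and an index the ratio was 5.03 in replicate 2 and 4.58 in replicate 1. The summed beta subunits came to 2.29 TPM in replicate 2 and 1.94 TPM in replicate 1. Of the 2 beta genes Inhba alone was higher in replicate 2, with 0.860 TPM against 0.400 TPM in replicate 1. That gap lay mainly in its effective length. Inhbb had 1.43 TPM in replicate 2 and 1.54 TPM in replicate 1. How the ratio differs between the animals thus depends on the length assigned to Inhba. These are ratios of mRNA, and the amounts of the dimers were not measured.

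Of the receptors, the type II receptor gene Acvr2a led. Acvr2a (chr2:48814109-48903269, plus strand) had 6.53 TPM in replicate 2 and 6.19 TPM in replicate 1, with overlapping intervals, and was among the closest of the 9 genes between the animals. Its 3′ end overlaps Orc4, a gene of the opposite strand at 21.7 ± 2.38 TPM, over 446 exonic bases or 7.84% of the exonic bases of Acvr2a. The library kit was directional, but no source used here says whether strand entered the counting, so reads of that stretch are uncertain. Acvr1b (chr15:101174067-101213684, plus strand), also known as ALK4, had 4.45 TPM in replicate 2 and 2.97 TPM in replicate 1. Its intervals, 4.02 to 4.69 in replicate 2 and 2.66 to 3.17 in replicate 1, did not overlap.

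Acvr2b (chr9:119402118-119434995, plus strand), the second type II receptor, had 3.64 TPM in replicate 2 and 1.96 TPM in replicate 1, from 229 and 206 expected counts. Acvr2a was therefore 1.79 times Acvr2b in replicate 2 and 3.16 times in replicate 1. The effective length of Acvr2b was 1903 bases in replicate 2 and 2697 bases in replicate 1, so its TPM also differed more than its counts. Receptors from this gene are known in forms with or without a short proline-rich segment outside the membrane and a longer segment inside the cell. The coding transcripts of the annotation differ in these same segments, which are shown here because the 2 animals differed in their shares. Capitals mark a stretch of 24 bases (chr9:119428201-119428224) held by Acvr2b-202 and Acvr2b-205 and absent from Acvr2b-201, with the joined flanking bases in lower case.
Acvr2b-202: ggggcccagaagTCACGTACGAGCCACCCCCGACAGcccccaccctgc
Acvr2b-201: ggggcccagaagcccccaccctgc
Capitals mark a stretch of 72 bases (chr9:119428353-119428424) held by Acvr2b-201 and Acvr2b-202 and spliced out of Acvr2b-205, where it begins with GT and ends with AG like an intron.
Acvr2b-202: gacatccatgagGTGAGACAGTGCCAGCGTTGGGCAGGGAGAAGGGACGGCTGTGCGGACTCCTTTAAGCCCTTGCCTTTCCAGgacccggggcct
Acvr2b-205: gacatccatgaggacccggggcct

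Acvr2b-205, the form of 512 codons without the longer segment, was the highest transcript of the gene in both animals and both transcript tables. It had 1.49 TPM (interval 1.14 to 1.75) in replicate 2 and 1.44 TPM (1.16 to 1.64) in replicate 1, and these overlapped. Transcripts without the 72-base segment made up 59.1% of coding Acvr2b TPM in replicate 2 and 77.0% in replicate 1. Transcripts with the 24-base segment made up 74.2% in replicate 2 and 94.1% in replicate 1. The form without that segment, Acvr2b-201 of 528 codons, had 0.650 TPM (0.215 to 1.10) in replicate 2 and 0.110 TPM (0.0209 to 0.305) in replicate 1, from 35.1 and 6.66 estimated counts, with overlapping intervals. The form with both segments, Acvr2b-202 of 536 codons, had 0.380 TPM in replicate 2 and 0.320 TPM in replicate 1. Retained-intron transcripts of Acvr2b summed to 1.11 TPM in replicate 2 and 0.0900 TPM in replicate 1, from 17.1 and 1.84 estimated counts. Of these, Acvr2b-203 held 19.9% of the gene in replicate 2 and 0% in replicate 1, and 29.4% and 0% in the index-based table. The depth behind these shares is low, and the intervals of every Acvr2b transcript overlapped between the animals.

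The co-receptor gene Tgfbr3 (ENSMUSG00000029287.14, chr5:107106570-107289629, minus strand) had 111 TPM in replicate 2 and 74.8 TPM in replicate 1. Its intervals, 106 to 112 in replicate 2 and 71.4 to 75.9 in replicate 1, lay far apart relative to their widths. It took 17472 of the 20613 counts on the 9 genes in replicate 2 and 14822 of 17949 in replicate 1. Betaglycan also presents TGF-β2 to its receptors, so its mRNA is not a measure of inhibin binding alone. Against its partners in inhibin binding, Tgfbr3 was 10.9 times the sum of Acvr2a and Acvr2b in replicate 2 and 9.18 times in replicate 1. It lay at percentile 97.9 of nuclear protein-coding genes in replicate 2 and 96.3 in replicate 1.

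Most Tgfbr3 RNA was assigned to the full coding transcript. That transcript, of 850 codons, had 81.4 TPM in replicate 2 and 60.7 TPM in replicate 1, or 73.3% and 81.1% of the gene in the alignment-based table. In the index-based table it held 69.8% in replicate 2 and 79.5% in replicate 1. The tables differed on what the rest was. The alignment-based table gave the retained-intron transcript Tgfbr3-204 21.8% in replicate 2 and 17.6% in replicate 1, and the noncoding Tgfbr3-203 3.05% and 0.360%. The index-based table gave Tgfbr3-204 8.64% in replicate 2 and 4.37% in replicate 1, and Tgfbr3-203 19.0% and 14.5%. Only 3.36% of the 31-base words of Tgfbr3-204 and 6.74% of those of Tgfbr3-203 are absent from the gene's other transcripts. Together the noncoding transcripts held 24.9% in replicate 2 and 18% in replicate 1 in the first table, and 27.6% and 18.9% in the second. Both tables therefore gave the noncoding transcripts a larger share of Tgfbr3 in replicate 2.

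**Figure D2:**
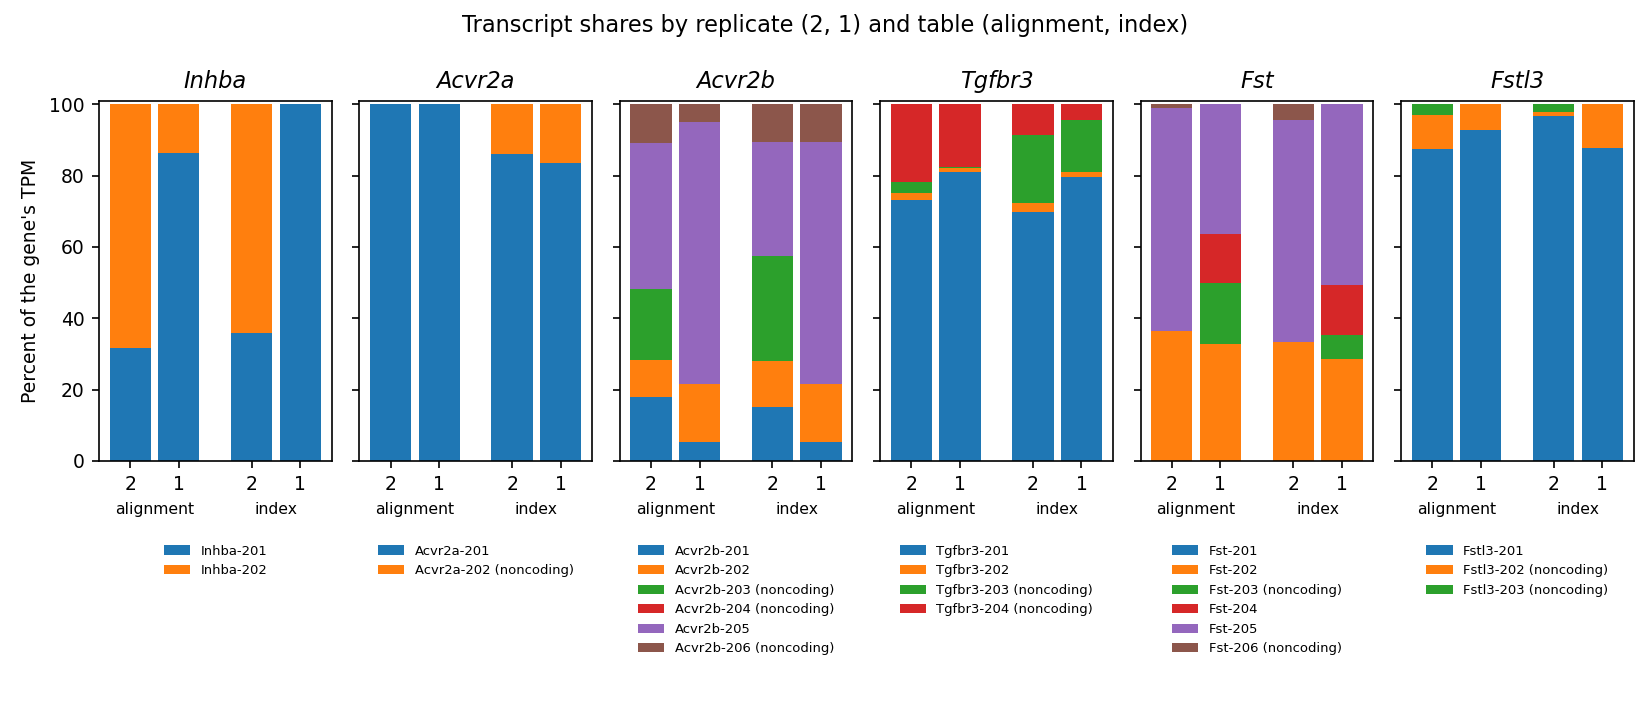
Percent of each gene's TPM held by each annotated transcript (colours), for the 6 genes with several transcripts, in replicates 2 and 1 of the alignment-based table (left pair of bars) and of the index-based table (right pair). The main colour changes between the animals for Inhba, the tables differ on the noncoding transcripts of Tgfbr3, and Acvr2b and Fst are divided among several forms.

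Of the binding proteins, Fstl3 exceeded Fst. Fstl3 (chr10:79777272-79782630, plus strand) had 3.77 TPM in replicate 2 and 3.03 TPM in replicate 1, with overlapping intervals. Its full coding transcript, of 256 codons, held 87.4% of the gene in replicate 2 and 92.9% in replicate 1 in the alignment-based table. The index-based table gave it 96.9% in replicate 2 and 87.7% in replicate 1, so the tables differed on the direction. Over 1157 exonic bases, 47.3% of those of Fstl3, the opposite strand carries Prss57, to which the tables gave 0.01 TPM in replicate 2 and 0.130 TPM in replicate 1. Fst (chr13:114452290-114458951, minus strand) had 1.35 TPM in replicate 2 and 1.84 TPM in replicate 1, from 74 and 105 expected counts, and its intervals overlapped. Over 115 of its exonic bases the opposite strand carries Gm47040, which had no count in replicate 2 and 0.0500 TPM in replicate 1. Per length, Fst and Fstl3 together were 2.24 times Inhba and Inhbb together in replicate 2 and 2.51 times in replicate 1, a mean of 2.37 ± 0.194 (SD, n = 2). The difference of this ratio between the animals also depends on the effective length assigned to Inhba.

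Fst is known for forms that differ at their carboxyl end, where an acidic tail is present in the form that circulates and absent from the form that binds heparan sulphate at cell surfaces. The ends of the coding regions are printed because the tail is the larger of the coding differences between Fst-205 and Fst-202. In Fst-205 (chr13:114453426-114454297, minus strand, an intron removed) capitals mark the 80 coding bases of the last exon, in whose 26 whole codons 12 are GAA, GAG, GAT or GAC, the codons of the acidic residues. In Fst-202 (chr13:114453804-114454297, an intron removed) capitals mark the stop codon that ends the coding region at this point. The bases of that codon lie on both sides of the removed intron.
Fst-205: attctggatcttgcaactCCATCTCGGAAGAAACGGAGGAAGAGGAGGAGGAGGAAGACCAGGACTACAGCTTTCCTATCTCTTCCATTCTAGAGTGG
Fst-202: attctggatcttgcaacTGA

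Both forms of Fst were given reads in both animals. Fst-205 had 28.3 estimated counts in replicate 2 and 26.35 in replicate 1. Only 2.77% of its 31-base words are absent from the gene's other transcripts, beside 25.4% of those of Fst-202. The tail is also held by Fst-201, so those words of Fst-205 do not mark the tail. Fst-205, with the tail and 343 codons, had 0.850 TPM (interval 0.339 to 1.19) in replicate 2 and 0.670 TPM (0.178 to 1.01) in replicate 1. Fst-202, without it and with 317 codons, had 0.490 TPM (0.307 to 0.651) in replicate 2 and 0.600 TPM (0.424 to 0.760) in replicate 1. The intervals of the 2 forms overlapped within each animal, so neither form was separated from the other at this depth. Transcripts with the tail held 63.4% of the full coding Fst TPM in replicate 2 and 52.8% in replicate 1, against 65.1% and 64.0% in the index-based table. The coding region of Fst-201, which also carries the tail, differs from that of Fst-205 by 3 bases (capitals) at the start of the fifth exon, over chr13:114454492-114455135 with an intron removed.
Fst-201: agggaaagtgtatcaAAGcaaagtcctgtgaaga
Fst-205: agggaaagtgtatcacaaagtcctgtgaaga
By the length of its coding region Fst-202 carries these 3 bases too, so Fst-205 and Fst-202 differ there as well as in the tail. Fst-201 was given 0 TPM in both animals and both tables, with an interval that reached up to 0.230 TPM in replicate 2 and up to 0.213 TPM in replicate 1.

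Of the 6 genes with several annotated transcripts, 5 had the same highest transcript in both animals and both tables, Inhba being the exception by TPM. Among all genes with several transcripts at 10 TPM or more this was so for 73.4%, and among those at 1 TPM or more for 70.0%. In the alignment-based table alone the 2 animals shared the highest transcript for 92.2% and 88.2% of such genes, and again for 5 of the 6. A count of 5 in 6 is near these shares. No 31-base word was shared between any 2 of the 9 genes, so the paralogous subunits, receptors and binding proteins were not mixed through identical sequence of that length.

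Between the animals no gene of the system stood 2-fold apart on the count scale. Here counts were scaled by TMM, and a gene was counted as apart where its TPM intervals were disjoint, its ratio was at least 2-fold and its mean count at least 100. Among 12645 genes with such counts 1.16% met this rule, 0.538% as higher and 0.625% as lower in replicate 2. Of the 9 genes 7 had such counts and 0 met it, Inhba and Fst having too few. A count of 0 in 7 is near the share of all genes and shows nothing particular to the system. With 1 library on each side there is no test, and intervals of ratios below are 95% exact intervals that cover counting error only.

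Acvr1b differed most. Its scaled count was 1.44-fold higher in replicate 2 (interval 1.28 to 1.62), with 675 scaled counts in replicate 2 and 469 in replicate 1, and its log2 ratio of 0.52 lay above the central 90% of nuclear protein-coding genes, -0.45 to 0.47. Inha was 1.34-fold higher in replicate 2 (1.17 to 1.53), with 528 scaled counts in replicate 2 and 395 in replicate 1. Tgfbr3 was 1.33-fold higher (1.30 to 1.36) and Acvr2b 1.26-fold (1.04 to 1.52). Their log2 ratios of 0.42, 0.41 and 0.33 lay inside that central range. The intervals of the remaining 5 genes included equality. Fstl3 was at 1.16-fold (0.959 to 1.41), Inhba at 1.08-fold (0.791 to 1.47), Acvr2a at 1.01-fold (0.936 to 1.10), Inhbb at 0.890-fold (0.734 to 1.08) and Fst at 0.798-fold (0.584 to 1.08).

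Of the 7 genes with enough counts, 6 had log2 ratios above 0, and their median was 0.33. Of the 12645 genes 50.5% lay above 0, and their median was 0.00. Over all 9 genes 7 lay above 0, all but Inhbb and Fst, with a median of 0.22. With scaling on the spike-ins, or with TMM on genes of lower count, Acvr2a lay below 0 too and 6 of the 9 genes lay above. On TPM as deposited the median of nuclear protein-coding genes was 0.07 and that of the 9 genes 0.48, with Inhba at 1.10 and Acvr2b at 0.89. Effective lengths differ between the libraries for Inhba and Acvr2b, but Inha and Acvr1b, whose effective lengths are equal, also moved, to 0.48 and 0.58 on TPM. With scaling on total counts Inha stood at 0.48 and the median of nuclear protein-coding genes at 0.06, so the scales differ in their denominator too. The TPM intervals of 4 of the 7 genes with enough counts did not overlap (Inha, Acvr1b, Acvr2b and Tgfbr3), as was so for 27.4% of all genes with such counts. Those shares are of 7 genes only and show nothing particular to the system.

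**Figure D3:**
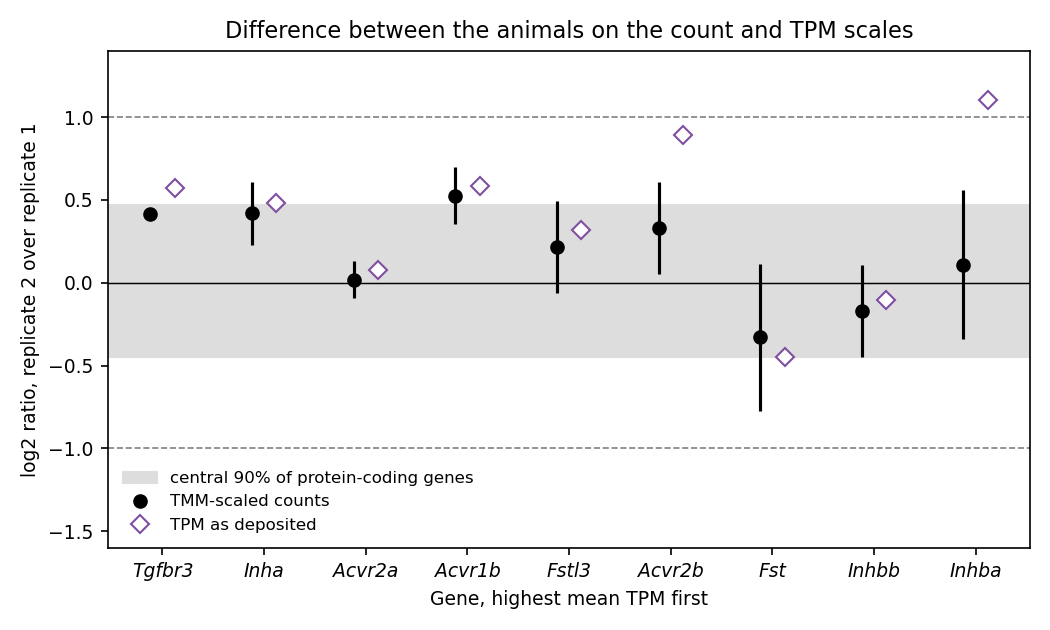
Log2 ratio of replicate 2 over replicate 1 for each gene, from TMM-scaled counts (black, with 95% counting intervals) and from TPM as deposited (open diamonds); the grey band holds the central 90% of nuclear protein-coding genes and dashed lines mark 2-fold. On counts all 9 genes lie within 2-fold, and on TPM Inhba lies above it at 1.10.

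The tissue carried its own defining markers and few of the ovary, an organ that makes inhibin in quantity and is present in female animals. All 8 adrenal cortex markers and all 5 chromaffin cell markers reached 10 TPM in both animals. The cortex markers summed to 27184 TPM in replicate 2 and 26003 TPM in replicate 1. Of 10 ovary markers Oosp1 alone reached 1 TPM in both, and their sum was 2.66 TPM in replicate 2 and 4.22 TPM in replicate 1. Fshr, Cyp19a1, Zp1, Zp2 and Zp3 were listed at 0 in both animals. Whether any ovary RNA contributed to the Inha values was not tested. Markers of adipocytes, cells known to express Inhbb, summed to 768 TPM in replicate 2 and 1462 TPM in replicate 1, and all 8 reached 1 TPM in both. Of these, 4 met the rule for being apart (Adipoq, Fabp4, Ucp1 and Adrb3), all as lower in replicate 2. So did 1 capsule and fibroblast marker (Col3a1) and 2 smooth muscle and pericyte markers (Acta2 and Myh11). Among all genes with a mean count of 100 or more 1.16% met the rule. Capsule and fibroblast markers (7 of 7 at 1 TPM) summed to 110 TPM in replicate 2 and 161 TPM in replicate 1, and smooth muscle and pericyte markers (4 of 6) to 57.5 and 80.8 TPM. Endothelial markers (6 of 6) summed to 197.4 TPM in replicate 2 and 204.6 TPM in replicate 1, and macrophage markers (5 of 5) to 52.4 and 50.4 TPM. What part these cells have in the levels of the 9 genes was not tested. In bulk tissue, fewer cells of a type and less RNA per cell cannot be told apart.

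The rest of the pathway was described from 7 lists of 79 genes in all, of which 49 reached 1 TPM in both animals. Among nuclear protein-coding genes 54.5% did so. Of the 79, 51 had a mean count of 100 or more, and 2 met the rule for being apart, 1 higher and 1 lower in replicate 2. Among all genes with such counts 1.16% met the rule. Of 16 other ligands, 6 reached 1 TPM, and Bmp7, a bone morphogenetic protein, alone reached 10 TPM, with 15.5 TPM in replicate 2 and 13.7 TPM in replicate 1. The other inhibin beta genes were nearly silent, with Inhbc listed at 0 in both animals and Inhbe at 0.01 TPM in each. Mstn and Nodal, whose products use the same type II receptors, were also listed at 0. Gdf11, Gdf1, Gdf3, Amh and Tgfb2 stayed below 1 TPM in both animals.

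Of 15 other receptors and co-receptors, 9 reached 1 TPM and 6 reached 10 TPM. The highest were Eng, the endothelial relative of betaglycan, with 38.3 TPM in replicate 2 and 39.7 TPM in replicate 1, and the TGF-β type II receptor gene Tgfbr2 with 29.4 and 29.6 TPM. The BMP receptor gene Bmpr1a had 25.8 TPM in replicate 2 and 25.7 TPM in replicate 1. All 3 thus lay below Tgfbr3 and above Acvr1b, Acvr2a and Acvr2b. Acvr1c had 3.03 TPM in replicate 2 and 5.07 TPM in replicate 1, and Tgfbr3l 6.53 and 3.06 TPM. On scaled counts they stood at 0.616-fold and 1.84-fold in replicate 2 over replicate 1. The TPM intervals of each gene did not overlap between the animals, as was so for 27.4% of all genes with a mean count of 100 or more. Neither gene met the rule for being apart. Bmpr1b, Amhr2, Igsf1 and the co-receptor genes Tdgf1 and Cfc1 stayed below 1 TPM in both animals.

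Of 15 SMADs and their regulators, 14 reached 1 TPM and 8 reached 10 TPM. Smad2, which carries the activin signal, had 35.5 TPM in replicate 2 and 34.3 TPM in replicate 1. The shared partner Smad4 had 22.0 TPM in replicate 2 and 23.7 TPM in replicate 1, and the repressor gene Ski 29.6 and 24.5 TPM. Foxh1, a DNA-binding partner of SMADs, stayed below 1 TPM. None of the 14 SMAD genes and regulators with enough counts met the rule for being apart. That is near the share of all genes with such counts, 1.16%. Their mRNA levels do not measure phosphorylation, which is the activin signal itself.

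Of 14 other binding proteins and antagonists, 7 reached 1 TPM. The latent TGF-β binding protein genes Ltbp3 and Ltbp4 led, with 96.7 TPM in replicate 2 and 87.5 TPM in replicate 1 for Ltbp3 and 32.5 and 40.3 TPM for Ltbp4. Wfikkn2, Nog, Grem1, Cer1 and Lefty2 stayed below 1 TPM in both. All 4 proprotein convertases, which cleave the subunit precursors, reached 1 TPM. Pcsk5 had 72.9 TPM in replicate 2 and 61.8 TPM in replicate 1, and Furin 54.0 and 52.6 TPM. Pcsk6 was 0.410-fold in replicate 2 relative to replicate 1, with 2.53 TPM in replicate 2 and 6.35 TPM in replicate 1, and met the rule for being apart.

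Of 8 known regulators of Inha, 7 reached 1 TPM, led by the steroidogenic factor gene Nr5a1 with 250 TPM in replicate 2 and 258 TPM in replicate 1. Nr4a1, an orphan nuclear receptor gene, had 135 TPM in replicate 2 and 14.8 TPM in replicate 1 and met the rule for being apart. Crem, a cAMP response factor gene, had 25.9 TPM in replicate 2 and 35.7 TPM in replicate 1. Nr5a2 stayed below 1 TPM. Of 10 gonadal genes known from the tumours of Inha-deficient mice, Gata4, Wt1 and Insl3 reached 1 TPM in both animals. Gata4 had 1.04 TPM in replicate 2 and 1.96 TPM in replicate 1, Wt1 1.07 and 1.02 TPM, and Insl3 2.14 and 1.36 TPM. Lhcgr, Fshr, Cyp17a1, Cyp19a1, Amh and Amhr2 stayed below 1 TPM in both. Foxl2 had 0.67 TPM in replicate 2 and 1.21 TPM in replicate 1.

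**Figure D4:**
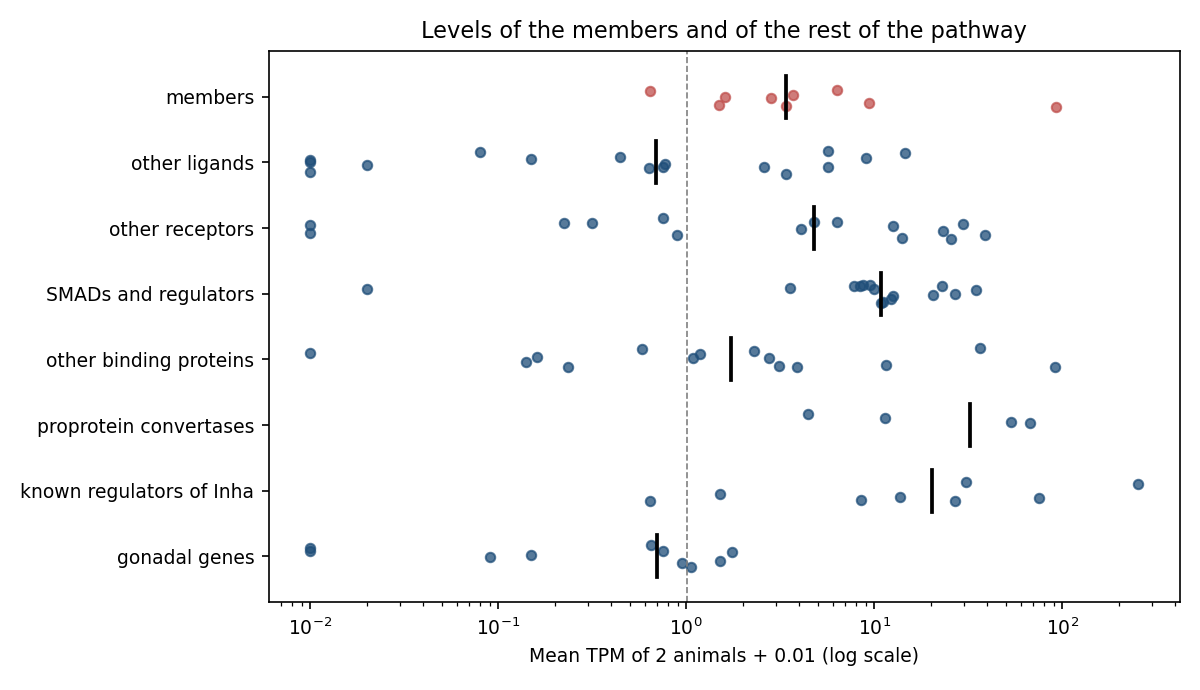
Mean TPM of the 2 animals plus 0.01, on a log axis, for the 9 members (red) and for each list of pathway genes (blue), 1 point per gene, with the median as a black bar and 1 TPM as a dashed line. Of the members Tgfbr3 alone reaches the range of the highest receptor, SMAD and binding protein genes, and most ligand and gonadal genes lie below 1 TPM.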

How the data were processed

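Total RNA (300 ng per library, with ERCC spike-ins) of 2 animals was sequenced, per the labels. Both carry 1 donor code but separate animal numbers, so they were treated as separate animals. If they are not, the spread given is technical. Per the notes deposited with the files, the gene table and 1 transcript table derive from an alignment to the transcriptome and the other transcript table from the reads and an index, with mm10 and GENCODE M21. The programs remain not given in the sources used here. The deposited expected counts are, per the file headers, estimates that are not normalized. The deposited TPM are scaled over everything in the table, including tRNA genes and spike-in transcripts, and FPKM by length and depth, both by the authors. Percent values per transcript are deposited too, as are TPM intervals of unstated level, which describe estimation within 1 library and lie around the posterior mean, so a TPM can fall just outside them.

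Scaling factors came from rounded counts with edgeR 4.0.16 (TMM, genes with a mean count of 100 or more, R 4.3.3). Log2 ratios used 0.5 added to scaled counts. Ratio intervals are exact (Clopper-Pearson) 95% binomial, on rounded counts. Sequences and 31-base words came from the GENCODE M21 transcripts, read on the transcript's strand. Alternatives were DESeq2 1.42.0 size factors, other scalings, limits, pseudocounts and tables. The fold rule was tested on simulated counts, which held no TPM intervals. Python 3.11.15 was used for the remaining steps. Named were all 9 members, and of each list the 3 highest genes at 10 TPM or more, those apart, and those below 1 TPM by name. Some genes between these limits are named too. Genes on 2 lists are counted once in the totals. Members, lists and rules were chosen with earlier results of these data known. All 55536 gene identifiers matched the annotation. RefSeq promoter windows were not used here.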

Additional observations from a re-analysis of the deposited data

How the results depend on the processing

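Levels rest on 2 libraries, and counts of 74 to 105 behind Fst and Inhba limit what can be said of them. With the level to be reached set at 5 TPM, 3 members passed in place of 8, and with a limit of 1.5-fold, 8 pathway genes were apart in place of 2, both by construction of the limits. The other 54 alternative values of the counts and balances moved by less than the spread between the animals or stayed within 1.5 times. Some of these were fixed in advance. Rescaling TPM over nuclear protein-coding genes cannot change a balance, because both of its parts are rescaled alike. For the balances, leaving out 1 of the 2 animals returns the value of the other. Such a value always lies within the SD of the mean, so it tests nothing. The ratio of Inha to the beta subunits was 4.34 with posterior mean TPM and 4.81 in the index-based table, and 4.05 to 4.78 with 1 animal left out. The number of members apart was 0 under the scalings, tables, pseudocounts and limits run. On TPM as deposited Inhba stood 2.15-fold apart with disjoint intervals, and only its mean count of 86 kept it out. Lower count limits were run on scaled counts and not on TPM. Rescaling TPM over nuclear protein-coding genes, which held 35.8% of TPM in replicate 2 and 35.4% in replicate 1, moved the level of all 9 members beyond the SD, and the index-based table did so for 3. By estimated counts the highest transcript was the same for 6 of 6 members, Inhba included. Over all genes, 68 were higher and 79 lower in replicate 2, against 90 and 59 with scaling on total counts and 121 and 68 on TPM as deposited. No paired analysis was possible because there is 1 group.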

Other observations

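The annotation places 3 genes of the class TEC, transcribed regions that await experimental proof, on the strand of Tgfbr3 and within its span. Gm43422 (chr5:107132118-107135688), which shares 297 exonic bases with Tgfbr3 transcripts, had 2.78 TPM in replicate 2 and 1.31 TPM in replicate 1. Gm42900 (chr5:107254338-107256504) had 1.42 TPM in replicate 2 and 0.750 TPM in replicate 1, and Gm43423 (chr5:107158478-107160571) 0.940 and 0.620 TPM. Neither of these shares an exonic base with Tgfbr3. On TMM-scaled counts Gm43422 stood at 2.04-fold, Gm42900 at 1.82-fold and Gm43423 at 1.46-fold in replicate 2 over replicate 1, beside 1.33-fold for Tgfbr3. They were singled out after their values had been seen.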
